A study of Homo sapiens with 24 samples.

Results

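Amino acid transporters were followed in Caki-1 and 769-P, a pair of lines from human renal cell carcinoma, with and without dasatinib. The set held 9 genes chosen by name: SLC1A1, SLC1A4, SLC1A5, SLC3A2, SLC7A1, SLC7A5, SLC7A11, SLC38A1 and SLC38A2. They were 9 of 18132 genes with a probe set of their own on the array. They were covered by 35 of 49293 probe sets, and each gene was read from the brightest probe set that names it alone, by the mean over 24 arrays. The genes were named with earlier results of these data known, and all 9 passed the filter on dim genes in both lines. Each is 1 established line; Caki-1 cells came from a metastasis, 769-P cells from a tumour of the kidney itself. They were given DMSO, the solvent, or 1 µM dasatinib, which inhibits ABL and the kinases of the SRC family, over 6, 12 or 24 h. The 8 groups held 3 Affymetrix PrimeView arrays each, described in the labels as biological replicates without a statement of how the cultures were separated, so the p-values measure the spread between these arrays. The DMSO arrays carried no time, and 1 DMSO group per line was the control at every time. Hours of drug and hours in culture therefore cannot be told apart, and the 3 comparisons with DMSO within a line share their controls.

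Cells import most amino acids through carriers of the solute carrier (SLC) families, some of which move sodium with the amino acid while others exchange one amino acid for another. SLC3A2 is a glycoprotein that carries partner transporters to the plasma membrane. With SLC7A5 it exchanges glutamine for leucine and other large neutral amino acids, and with SLC7A11 it exchanges glutamate for cystine, the source of cysteine for glutathione. In renal tubule cells, carriers of these families recover filtered amino acids, and many cultured carcinoma cells depend on imported glutamine, cystine and leucine for growth and for activation of the kinase complex mTORC1.

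Promoter sequences were shown for some of the members, because transporter genes are known targets of factors that bind short DNA motifs. The windows come from RefSeq, build GRCh38.p14, each running from 250 bases before to 50 bases after an annotated transcription start. Of the 9 members, 8 had windows there, 14 in all. SLC7A11 had no window, so the motif search does not cover it. The 150 bases before the start are printed 5′ to 3′ on the strand of the gene. Matches to the searched motifs that lie wholly within them are in capitals. SLC3A2 (the first of its 3 windows) lies at chr11:62881549-62881698 on the plus strand, and SLC7A5 at chr16:87869508-87869657 on the minus strand. SLC1A5 (the second of its 3 windows) lies at chr19:46787294-46787443 on the minus strand, and SLC38A2 at chr12:46372774-46372923 on the minus strand. The other windows of SLC3A2 held no match to the searched motifs.
SLC3A2: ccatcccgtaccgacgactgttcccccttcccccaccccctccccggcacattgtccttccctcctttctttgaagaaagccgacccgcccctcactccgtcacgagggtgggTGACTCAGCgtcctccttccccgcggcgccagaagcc
SLC7A5: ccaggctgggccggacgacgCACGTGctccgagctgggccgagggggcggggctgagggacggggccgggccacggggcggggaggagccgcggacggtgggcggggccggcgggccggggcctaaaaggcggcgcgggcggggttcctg
SLC1A5: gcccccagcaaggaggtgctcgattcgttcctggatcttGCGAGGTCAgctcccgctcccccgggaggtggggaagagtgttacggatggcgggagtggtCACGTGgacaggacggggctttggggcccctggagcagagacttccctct
SLC38A2: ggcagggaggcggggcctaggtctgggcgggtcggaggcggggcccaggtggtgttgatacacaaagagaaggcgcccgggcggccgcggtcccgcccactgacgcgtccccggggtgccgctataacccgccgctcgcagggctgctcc

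Both strands of the windows of 300 bases were searched for 3 motifs, which do not contain one another. The antioxidant response element, bound by NFE2L2 (NRF2), was spelled TGACNNNGC and matched 4 member windows, in SLC1A5, SLC3A2, SLC7A1 and SLC7A5, against 13.3% of all 35116 windows. The capitals in SLC3A2 are such a match, beginning at position -37 from the start, and the first capitals in SLC1A5 are a match on the other strand. The match in SLC7A5 begins at position -2 and runs past the start, so it is not in capitals. The E-box, bound by MYC among others, was spelled CACGTG and matched 2 member windows, in SLC1A5 and SLC7A5, against 7.26% of all windows; it is the capitals in SLC7A5 and the second capitals in SLC1A5. The C/EBP-ATF composite element, bound by ATF4 with a partner, was spelled TGATGNAAN and matched 5 of the 14 member windows, in SLC1A4, SLC1A5, SLC3A2, SLC7A1 and SLC38A1, against 3.61% of all windows. None of the 5 falls in the stretches printed here, and the window of SLC38A2 held no match to any of these letters. A match describes the sequence and is not evidence of binding.

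The deposited values were log2 signals. Array medians lay between 6.01 and 6.08, and within a group the correlation between arrays was 0.993 to 0.997, with 0 identical arrays. Of 5 markers listed as renal and epithelial, of which VIM is not specific to epithelium, 4 were bright in every group. Their group means were 9.79 to 10.7 for PAX8, 9.01 to 10.7 for KRT8, 11.4 to 12.5 for KRT18 and 14.7 to 14.9 for VIM. PAX2, a transcription factor of the developing kidney, was dim, with group means of 5.71 to 7.22. Defining markers of other cell types were dim, with group means of 3.39 to 3.62 for PTPRC (leukocytes), 5.28 to 5.62 for CD3E (T cells), 4.96 to 5.32 for CDH5 (endothelium) and 3.98 to 4.54 for ALB (hepatocytes). PECAM1 reached 6.35, and CD68, a lysosomal protein used as a macrophage marker, lay between 8.0 and 8.91. Both rose in Caki-1 at 24 h, PECAM1 by 0.89 ± 0.13 and CD68 by 0.52 ± 0.11, while PTPRC, CDH5 and ALB stayed under the filter on dim genes; the part of these markers in the results was not tested. Probe sets differ in affinity, so levels are set against each other only within a gene. The number of arrays limits the precision.

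In Caki-1, 4 of the 9 transporters were higher than DMSO and 0 lower at 6 h, 4 higher and 1 lower at 12 h, and 4 higher and 3 lower at 24 h, by limma with an adjusted p under 0.05. Over all genes tested, 26.3% passed at 6 h (12.3% higher, 14.0% lower), 48.4% at 12 h (24.1% and 24.4%) and 62.8% at 24 h (32.9% and 29.9%). The members' shares were 44.4%, 55.6% and 77.8%. In 769-P, 3 transporters were higher and 2 lower at 6 h, 5 higher and 3 lower at 12 h, and 4 higher and 3 lower at 24 h. There the background was 30.9% at 6 h (16.4% higher, 14.5% lower), 47.5% at 12 h (24.9% and 22.6%) and 55.7% at 24 h (31.1% and 24.6%), and the members' shares were 55.6%, 88.9% and 77.8%. The median change of the members was 0.09, 0.12 and 0.20 in Caki-1 and 0.27, 0.25 and 0.15 in 769-P, while the median over all genes lay between 0.01 and 0.08. Arrays of the paired groups did not overlap for 4, 5 and 7 members in Caki-1, against 40.4%, 58.3% and 66.8% of all genes tested. In 769-P they did not overlap for 7 members at each time, against 43.0%, 54.1% and 60.6%. In whole cultures, fewer cells of a kind and less RNA per cell cannot be told apart. In 769-P, deviations of equally numbered arrays correlated at 6 h, with r from 0.11 to 0.36. The labels do not say that these numbers pair arrays. With the replicate number as a block 8 members passed at that time, against 35.3% of all genes. SLC1A1 (adjusted p = 0.0367), SLC3A2 (adjusted p = 0.00754) and SLC7A5 (adjusted p = 0.0128) then joined the higher group.

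**Figure D1:**
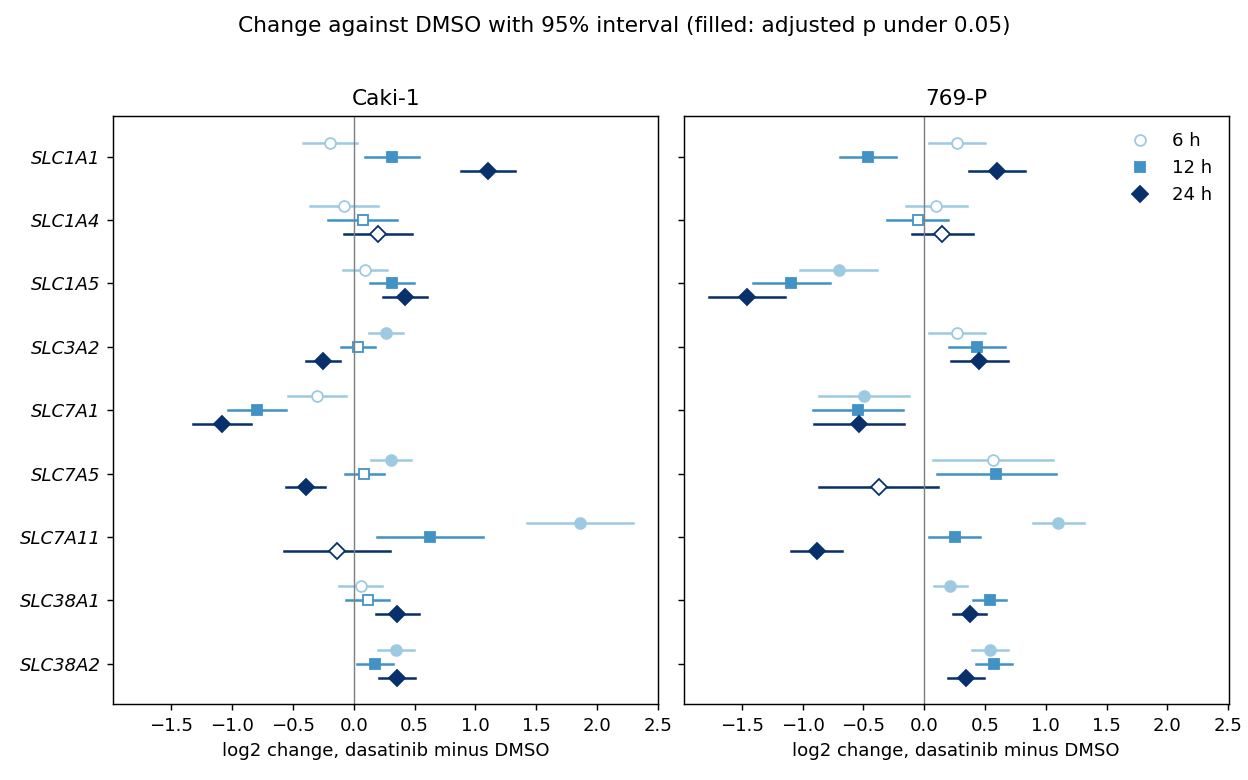
Log2 change of each transporter against DMSO in Caki-1 (left) and 769-P (right) at 6, 12 and 24 h of dasatinib, with 95% intervals from limma; filled symbols have an adjusted p under 0.05. SLC7A11 at 6 h lies farthest right in both lines, and SLC1A5 lies right of 0 in Caki-1 and left of 0 in 769-P.

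SLC7A11, the cystine carrier of system xc-, had the largest rise of the members in each line, at 6 h. In Caki-1 the DMSO arrays read 8.30, 8.01 and 8.21, and the arrays after 6 h of dasatinib read 9.37, 10.39 and 10.34. The first of these lay about 1 log2 unit below the other two, and all lay above every DMSO array. The rise was 1.86 ± 0.20 (SE), a 3.64-fold higher signal (adjusted p = 1.06e-05), and without the first array it was 2.19. At 12 h the arrays read 9.0, 8.73 and 8.66, still above DMSO, with a change of 0.62 ± 0.20 (adjusted p = 0.0195). That call was lost without replicate 2 of DMSO (adjusted p = 0.0765) or without replicate 1 at 12 h (adjusted p = 0.0658). It was also lost when its probe sets were averaged (0.42, adjusted p = 0.0797) and with the brightest probe set that has neither suffix _x nor _s (0.54, adjusted p = 0.158). At 24 h the arrays read 7.86, 8.15 and 8.09 and overlapped DMSO, and the difference of -0.14 ± 0.20 did not pass the test (adjusted p = 0.568).

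In 769-P, SLC7A11 began at 9.11, 8.87 and 8.88 under DMSO and reached 10.17, 10.06 and 9.94 at 6 h. The groups were apart by a rise of 1.10 ± 0.10, or 2.15-fold (adjusted p = 5.14e-07). The 12 h arrays, at 9.04, 9.35 and 9.23, overlapped DMSO, and the change of 0.25 ± 0.10 passed narrowly (adjusted p = 0.0474); leaving out any 1 of 4 arrays lost that call, with adjusted p from 0.113 to 0.198. These were replicates 2 and 3 of both DMSO and 12 h. Median centring, no filter on dim genes, no intensity trend, the mean of probe sets (0.16), the probe set without suffix _x or _s and 1 fit of all 24 arrays also ended the call, with adjusted p from 0.0556 to 0.255. At 24 h the arrays read 8.06, 8.15 and 8.0, all below DMSO, and SLC7A11 fell by 0.89 on the log2 scale (SE 0.10, adjusted p = 1.22e-06). Between 6 and 24 h the signal fell by 2.0 ± 0.20 in Caki-1 and by 1.99 ± 0.10 in 769-P.

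**Figure D2:**
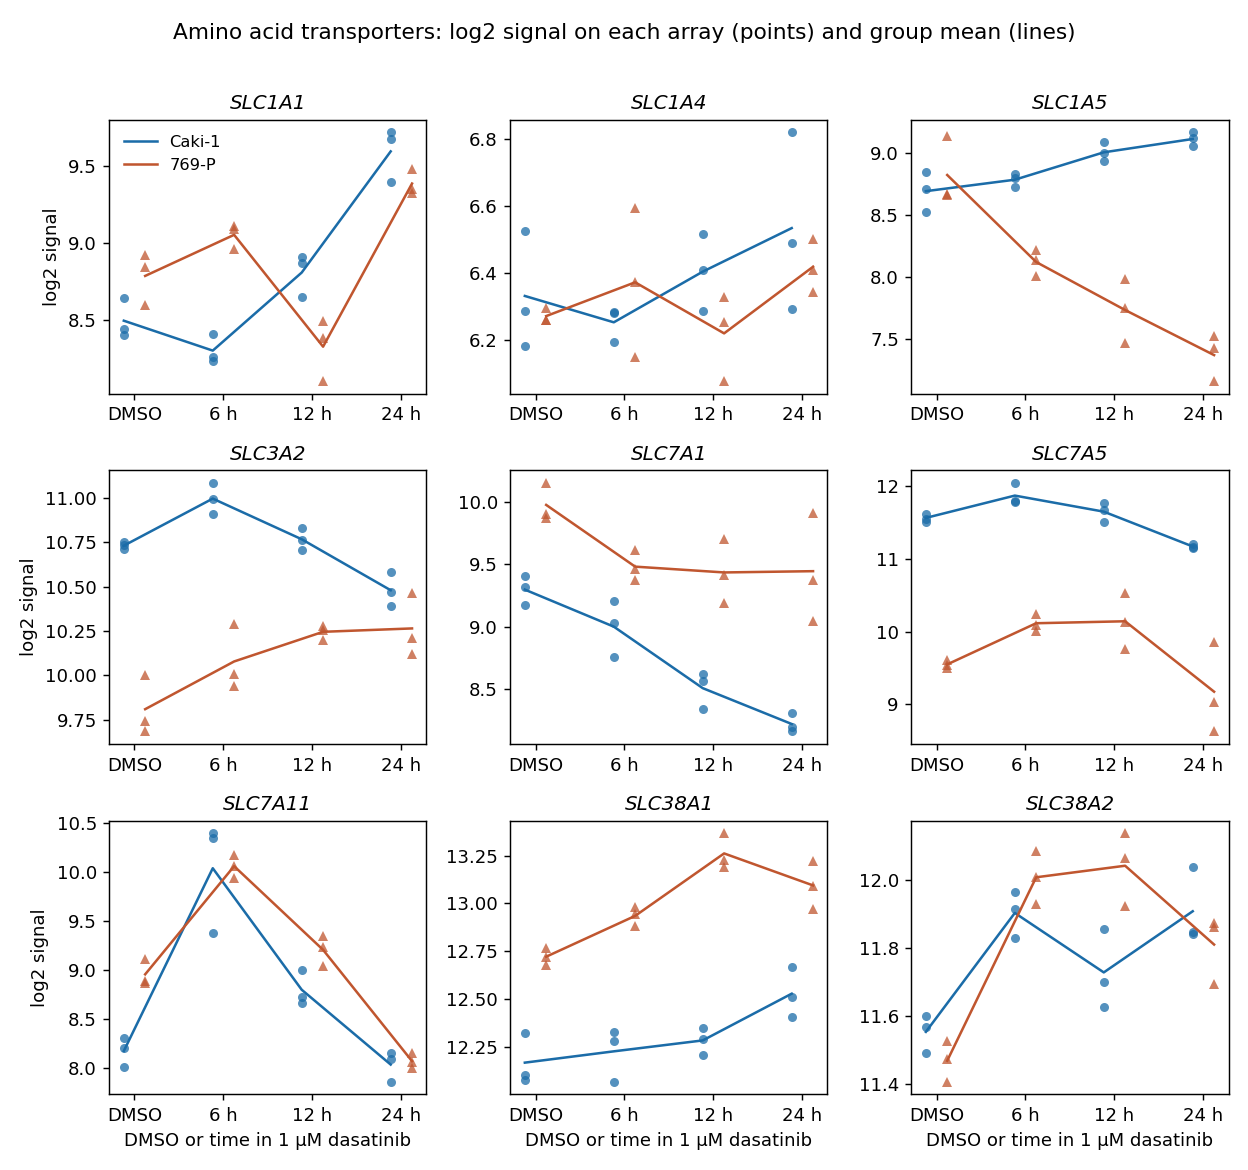
Log2 signal of the 9 transporters on each of the 24 arrays, by group, with Caki-1 as circles, 769-P as triangles and lines through the group means of 3 arrays. SLC7A11 peaks at 6 h in both lines, SLC1A5 parts between the lines, and SLC7A1 descends in Caki-1; each panel has its own axis, which does not start at 0.

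SLC7A5 (LAT1), the carrier of leucine and other large neutral amino acids, was higher early and lower late in Caki-1. Its arrays there read 11.63, 11.56 and 11.52 under DMSO, 12.05, 11.79 and 11.78 at 6 h, 11.52, 11.77 and 11.67 at 12 h, and 11.15, 11.20 and 11.16 at 24 h. The 6 h group lay wholly above DMSO, the 12 h group overlapped it and the 24 h group lay wholly below. The changes were 0.31 ± 0.08 (adjusted p = 0.00694), 0.09 ± 0.08 (adjusted p = 0.372) and -0.39 ± 0.08 (adjusted p = 0.000326). In 1 fit of all 24 arrays, where the wider spread of SLC7A5 in 769-P enters the error, neither call held, with adjusted p = 0.276 at 6 h and 0.0762 at 24 h.

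In 769-P the SLC7A5 arrays read 9.54, 9.50 and 9.61 under DMSO, 10.25, 10.01 and 10.09 at 6 h, and 10.53, 10.14 and 9.76 at 12 h. All 6 treated arrays lay above DMSO. The change was 0.57 ± 0.23 at 6 h, which did not pass (adjusted p = 0.0762), and 0.59 ± 0.23 at 12 h (adjusted p = 0.0448). The 6 h change passed with the block named above and in 1 fit of all 24 arrays (adjusted p = 0.0239). It also passed with the mean of both probe sets (0.44, adjusted p = 0.0459). The 12 h call was lost when any of 5 arrays was left out, all but replicate 3 at 12 h, with adjusted p from 0.0664 to 0.205. Median centring, no filter, no trend and the mean of both probe sets (0.36) also ended it, with adjusted p from 0.0504 to 0.0697. At 24 h the arrays spread over 9.86, 9.04 and 8.63, and replicate 1 stood above DMSO while the other two stood below it. The difference was -0.38 ± 0.23 (adjusted p = 0.188), and without replicate 1 at 24 h it was -0.72 (adjusted p = 0.00175).

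SLC3A2 is the heavy subunit that SLC7A5 and SLC7A11 share. In Caki-1 its arrays read 10.71, 10.73 and 10.75 under DMSO and 10.99, 11.08 and 10.91 at 6 h, with no overlap and a rise of 0.27 ± 0.06 (adjusted p = 0.00637). At 12 h they read 10.71, 10.76 and 10.83, a difference of 0.04 ± 0.06 (adjusted p = 0.67). At 24 h, at 10.39, 10.47 and 10.58, they lay wholly below DMSO, and SLC3A2 fell by 0.25 ± 0.06 (adjusted p = 0.00321), or by 0.16 after quantile normalization (adjusted p = 0.0326) and by 0.43 on the brightest probe set without suffix _x or _s (adjusted p = 0.00023).

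In 769-P, SLC3A2 read 10.00, 9.74 and 9.68 under DMSO, 10.29, 9.94 and 10.01 at 6 h, 10.28, 10.26 and 10.20 at 12 h, and 10.46, 10.12 and 10.21 at 24 h. The 12 and 24 h groups lay wholly above DMSO, with rises of 0.44 ± 0.11 (adjusted p = 0.00335) and 0.45 ± 0.11 (adjusted p = 0.00192), and the 6 h group overlapped it (0.27 ± 0.11, adjusted p = 0.0737). Without replicate 1 of DMSO, the highest of its group, the 6 h change was 0.36 (adjusted p = 0.0232). The 6 h change also passed in 1 fit of all 24 arrays (adjusted p = 0.028) and with the mean of its probe sets (0.33, adjusted p = 0.0398).

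SLC1A5 (ASCT2), a sodium-dependent carrier of glutamine and other neutral amino acids, was higher than DMSO in Caki-1 at 12 and 24 h and lower in 769-P at all 3 times. In Caki-1 it read 8.85, 8.71 and 8.53 under DMSO, 8.73, 8.83 and 8.80 at 6 h, 9.09, 8.94 and 9.0 at 12 h, and 9.06, 9.12 and 9.17 at 24 h. The 6 h arrays fell within the range of DMSO (0.09 ± 0.08, adjusted p = 0.493), and every later array lay above it. The rises were 0.31 ± 0.08 at 12 h (adjusted p = 0.00635) and 0.42 ± 0.08 at 24 h (adjusted p = 0.000499).

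In 769-P, SLC1A5 read 9.14, 8.67 and 8.67 under DMSO, 8.22, 8.01 and 8.14 at 6 h, 7.98, 7.75 and 7.46 at 12 h, and 7.52, 7.16 and 7.43 at 24 h. Every treated array lay below every DMSO array. It fell by 0.70 ± 0.15 at 6 h (adjusted p = 0.00177), by 1.09 ± 0.15 at 12 h (adjusted p = 1.65e-05) and by 1.46 ± 0.15 at 24 h (adjusted p = 4.63e-07), the last a 2.75-fold lower signal. Under DMSO the lines differed by -0.13 ± 0.13, Caki-1 minus 769-P (adjusted p = 0.399), with a 95% interval of -0.39 to 0.13.

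SLC38A2 (SNAT2), a sodium-coupled carrier of small neutral amino acids whose message is known to rise when amino acids run short, was the only member higher than DMSO by the test in all 6 comparisons. In Caki-1 it read 11.60, 11.49 and 11.57 under DMSO and 11.83, 11.97 and 11.92 at 6 h. The 12 h arrays read 11.63, 11.86 and 11.70 and the 24 h arrays 11.84, 11.85 and 12.04, and every treated array exceeded every DMSO array. The rises were 0.35 ± 0.07 (adjusted p = 0.00149), 0.18 ± 0.07 (adjusted p = 0.0472) and 0.36 ± 0.07 (adjusted p = 0.000355). The 12 h call was lost without replicate 2 or 3 of DMSO or of 12 h (adjusted p from 0.0713 to 0.229), and without replicate 2 at 12 h the change was 0.11. Median centring, no filter, no trend and the use of probe sets without suffix _x or _s in all genes ended it as well, with adjusted p from 0.0507 to 0.107.

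In 769-P, SLC38A2 read 11.47, 11.53 and 11.41 under DMSO, 11.93, 12.09 and 12.01 at 6 h, 12.06, 12.14 and 11.92 at 12 h, and 11.69, 11.88 and 11.86 at 24 h. The DMSO arrays were again the lowest. The rises were 0.54 ± 0.07 (adjusted p = 2.26e-05), 0.57 ± 0.07 (adjusted p = 5.37e-06) and 0.34 ± 0.07 (adjusted p = 0.00054). These values hold for the brightest probe set; the dimmer ones, given further on, had values below 0 at 24 h in both lines and passed as lower in Caki-1 at 12 h.

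SLC38A1 (SNAT1), a close relative that also takes up glutamine with sodium, ranged over 12.08, 12.10 and 12.32 under DMSO in Caki-1. Its 6 and 12 h arrays overlapped these, with differences of 0.06 ± 0.08 (adjusted p = 0.68) and 0.12 ± 0.08 (adjusted p = 0.267). At 24 h the arrays read 12.41, 12.51 and 12.67, above DMSO, a rise of 0.36 ± 0.08 (adjusted p = 0.00144). In 769-P the DMSO arrays read 12.77, 12.68 and 12.72, and all 9 treated arrays lay higher, between 12.88 and 13.37. There SLC38A1 rose by 0.21 ± 0.06 at 6 h (adjusted p = 0.0169), 0.54 ± 0.06 at 12 h (adjusted p = 3.68e-06) and 0.37 ± 0.06 at 24 h (adjusted p = 9.9e-05). The 6 h call was lost without replicate 2 of DMSO (adjusted p = 0.0712) or of 6 h (adjusted p = 0.0694), and without the intensity trend (adjusted p = 0.0619).

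SLC7A1 (CAT1), the carrier of arginine and other cationic amino acids, was lower than DMSO in both lines. In Caki-1 it read 9.17, 9.31 and 9.41 under DMSO, 8.76, 9.21 and 9.03 at 6 h, 8.34, 8.56 and 8.62 at 12 h, and 8.30, 8.16 and 8.19 at 24 h. The 6 h group overlapped DMSO at one array, and the 12 and 24 h groups lay wholly below it. The change was -0.30 ± 0.11 at 6 h (adjusted p = 0.0638), and SLC7A1 then fell by 0.79 ± 0.11 at 12 h (adjusted p = 3.15e-05) and by 1.08 ± 0.11 at 24 h (adjusted p = 6.89e-07). Without replicate 1 of DMSO or replicate 2 at 6 h the early difference passed too (adjusted p = 0.0454 and 0.0218), as it did after median centring (adjusted p = 0.0431) and quantile normalization (adjusted p = 0.0454).

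In 769-P, SLC7A1 read 10.16, 9.90 and 9.88 under DMSO, 9.61, 9.46 and 9.37 at 6 h, 9.70, 9.41 and 9.19 at 12 h, and 9.92, 9.38 and 9.04 at 24 h. The 24 h arrays were spread widely, and replicate 1 among them lay inside the DMSO range. SLC7A1 fell by 0.50 ± 0.17 (adjusted p = 0.0399), 0.54 ± 0.17 (adjusted p = 0.0166) and 0.53 ± 0.17 (adjusted p = 0.0156). The 6 h call was lost without replicate 1 or 2 of DMSO or replicate 2 or 3 at 6 h (adjusted p from 0.0679 to 0.142) and without the trend (adjusted p = 0.064). The 12 h call was lost without replicate 1 of DMSO (0.0722) or replicate 3 at 12 h (0.0872), and the 24 h call without replicate 1 of DMSO (0.0692) or replicate 3 at 24 h, where the change was -0.33 (adjusted p = 0.1). Replicate 1 was the highest of the 3 DMSO arrays of 769-P for SLC7A1, and also for SLC1A5 and SLC3A2.

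SLC1A1 (EAAT3), which takes up glutamate, aspartate and cysteine and is expressed in kidney tubules, was higher at 24 h in both lines. In Caki-1 it read 8.64, 8.40 and 8.44 under DMSO, 8.41, 8.26 and 8.23 at 6 h, 8.65, 8.87 and 8.91 at 12 h, and 9.67, 9.39 and 9.72 at 24 h. The 6 h group overlapped DMSO (-0.19 ± 0.10, adjusted p = 0.203), and the 24 h group stood well above every other Caki-1 array. The rise was 0.31 ± 0.10 at 12 h (adjusted p = 0.022) and 1.10 ± 0.10 at 24 h (adjusted p = 2.84e-07), the latter 2.15-fold. The 12 h call was lost without replicate 2 or 3 of DMSO or of 12 h (adjusted p from 0.0737 to 0.0908).

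In 769-P, SLC1A1 read 8.59, 8.84 and 8.92 under DMSO, 9.11, 9.09 and 8.96 at 6 h, 8.10, 8.38 and 8.49 at 12 h, and 9.33, 9.35 and 9.48 at 24 h. The 12 h group lay wholly below DMSO and the 6 and 24 h groups wholly above. The change was 0.27 ± 0.11 at 6 h (adjusted p = 0.0751), or 0.34 without replicate 3 of DMSO (adjusted p = 0.0466). SLC1A1 then fell by 0.46 ± 0.11 at 12 h (adjusted p = 0.00225) and rose by 0.60 ± 0.11 at 24 h (adjusted p = 0.000177), or by 0.29 with the mean of both its probe sets (adjusted p = 0.0369).

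SLC1A4 (ASCT1), a carrier of alanine, serine and cysteine, did not pass in any of the comparisons made with its brightest probe set and every array. Its arrays lay between 6.18 and 6.82 in Caki-1 and between 6.08 and 6.59 in 769-P, and each treated group but 1 overlapped DMSO. That group was 769-P at 24 h, at 6.50, 6.34 and 6.41 against 6.26, 6.29 and 6.26 (0.15 ± 0.12, adjusted p = 0.319). In Caki-1 at 24 h the change was 0.20 ± 0.13 with 95% limits of -0.08 and 0.48. Without replicate 3 at 24 h it was 0.32 (adjusted p = 0.0499), and with the mean of all 6 probe sets it was -0.24 (adjusted p = 0.0215). Also without that replicate, the change from 6 to 24 h in Caki-1 was 0.40 (adjusted p = 0.0225), against 0.28 with every array (adjusted p = 0.0836).

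Under DMSO the lines differed in 6 of the 9 members, 2 higher and 4 lower in Caki-1, against 58.7% of all genes tested (28.8% higher and 29.9% lower). SLC7A5 was 4.04-fold higher in Caki-1 (2.02 ± 0.19, adjusted p = 1.46e-09) and its partner SLC3A2 was 1.89-fold higher (0.92 ± 0.09, adjusted p = 4.66e-09). Lower in Caki-1 than in 769-P were SLC7A11 (-0.78 ± 0.17, adjusted p = 0.00036), SLC7A1 (-0.68 ± 0.16, adjusted p = 0.000621), SLC38A1 (-0.55 ± 0.08, adjusted p = 1.02e-06) and SLC1A1 (-0.29 ± 0.11, adjusted p = 0.0256). The arrays of the lines did not overlap for the first 5 of these, against 63.3% of all genes, and those of SLC1A1 did, since the highest Caki-1 array read 8.64 and the lowest 769-P array 8.59. The SLC1A1 call was lost without replicate 2 or 3 of either DMSO group (adjusted p from 0.0795 to 0.125) and with the mean of its probe sets (adjusted p = 0.0641). SLC38A2 and SLC1A4 differed by 0.08 ± 0.07 (adjusted p = 0.328) and 0.06 ± 0.13 (adjusted p = 0.714). With the mean of probe sets both were higher in Caki-1, SLC38A2 by 0.25 (adjusted p = 0.0121) and SLC1A4 by 0.68 (adjusted p = 1.74e-07). The next 3 probe sets of SLC1A4 by brightness differed by 0.63, 1.27 and 1.82, all past the test. For SLC7A5 every Caki-1 array of any treatment, from 11.15 up, exceeded every 769-P array, of which the highest read 10.53.

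Comparing 24 h with 6 h leaves the DMSO arrays out. In Caki-1, 7 members passed, 3 higher and 4 lower at 24 h, against 53.7% of all genes (28.1% higher, 25.6% lower). SLC1A1 (1.30 ± 0.10), SLC1A5 (0.33 ± 0.08) and SLC38A1 (0.30 ± 0.08) were higher at 24 h, and SLC7A11 (-2.0 ± 0.20), SLC7A1 (-0.78 ± 0.11), SLC7A5 (-0.70 ± 0.08) and SLC3A2 (-0.52 ± 0.06) were lower. With the mean of probe sets SLC38A1 did not pass (0.21, adjusted p = 0.121) and SLC38A2, which had not passed, was lower (-0.31, adjusted p = 0.00343). In 769-P, 5 passed, 1 higher and 4 lower, against 44.3% (25.8% and 18.5%). SLC1A1 was higher (0.33 ± 0.11), and SLC7A11 (-1.99 ± 0.10), SLC7A5 (-0.94 ± 0.23), SLC1A5 (-0.75 ± 0.15) and SLC38A2 (-0.20 ± 0.07) were lower. SLC1A1 lost its call without replicate 3 at 6 h (adjusted p = 0.0805) or at 24 h (0.0798), and SLC38A2 without replicate 2 (0.125) or 3 (0.0697) at 6 h or replicate 1 at 24 h (0.134). With the mean of both its probe sets SLC1A1 changed by 0.10 (adjusted p = 0.51), and SLC38A2 did not pass after quantile normalization (adjusted p = 0.123) or without the trend (adjusted p = 0.0695). With the replicate number as a block, SLC38A1 (0.16, adjusted p = 0.0276) and SLC3A2 (0.19, adjusted p = 0.0425) passed as well, for 7 in all against 47.5% of all genes. SLC38A1 also passed after quantile normalization (adjusted p = 0.0467), median centring (0.0455) and the 60th-percentile filter (0.0436). It passed with the brightest probe set without suffix _x or _s (0.50, adjusted p = 0.00133) and without replicate 1 at 24 h (0.22, adjusted p = 0.00916). Without replicate 1 at 6 h SLC3A2 passed (0.29, adjusted p = 0.0466). Deviations of equally numbered arrays correlated only weakly in this comparison, with r from 0.10 to 0.19. The labels do not say that these numbers pair arrays.

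The responses of the lines were compared directly in a fit of all 24 arrays, by subtracting the change in 769-P from that in Caki-1. At 6 h 1 member passed, with the higher value in Caki-1, against 8.09% of all genes (3.68% higher, 4.42% lower). At 12 h 5 passed, 2 higher and 3 lower, against 18.9% (8.67% and 10.3%). At 24 h 4 passed, 3 higher and 1 lower, against 36.0% (13.8% and 22.1%). SLC1A5 passed at each time, with differences of 0.80 ± 0.18 (adjusted p = 0.00488), 1.41 ± 0.18 (adjusted p = 3.3e-06) and 1.88 ± 0.18 (adjusted p = 2.49e-08). SLC1A1 differed by 0.77 ± 0.16 at 12 h (adjusted p = 0.000762) and 0.50 ± 0.16 at 24 h (adjusted p = 0.0138). The 12 h difference joins a rise in Caki-1 to a fall in 769-P, and the 24 h difference 2 rises of unequal size.

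SLC3A2 differed the other way, by -0.40 ± 0.13 at 12 h (adjusted p = 0.0331) and by -0.71 ± 0.13 at 24 h (adjusted p = 0.000166), where it was below DMSO in Caki-1 and above it in 769-P. The 12 h call was lost when any of 8 arrays was left out, replicates 2 and 3 of each DMSO group and replicates 1 and 2 of each 12 h group (adjusted p from 0.0608 to 0.0938), and without the trend (adjusted p = 0.0503). SLC38A1 (-0.42 ± 0.11, adjusted p = 0.00697) and SLC38A2 (-0.40 ± 0.10, adjusted p = 0.00586) differed at 12 h, both with the higher change in 769-P. For SLC38A1 this did not hold with the brightest probe set that has neither suffix _x nor _s (-0.15, adjusted p = 0.604) or with the mean of its probe sets (-0.19, adjusted p = 0.455). At 24 h their differences were -0.01 ± 0.11 and 0.01 ± 0.10, with 95% limits of -0.24 and 0.21 and of -0.19 and 0.22.

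SLC7A11 differed by 0.75 ± 0.24 at 24 h (adjusted p = 0.0184), lost without replicate 2 of the Caki-1 DMSO group (0.67, adjusted p = 0.0523). It was also lost with the mean of probe sets (0.53, adjusted p = 0.0649) and with the brightest probe set without suffix _x or _s (0.56, adjusted p = 0.23). At 6 h its difference was 0.76 ± 0.24 (adjusted p = 0.0546), and without replicate 1 of Caki-1 at 6 h it was 1.09 (adjusted p = 6.55e-05). SLC7A5, SLC7A1 and SLC1A4 did not pass at any time. At 24 h the 95% limits were -0.57 and 0.54 for SLC7A5 and -1.01 and -0.09 for SLC7A1, whose difference of -0.55 ± 0.22 (adjusted p = 0.0581) passed without replicate 1 of either DMSO group or replicate 3 of 769-P at 24 h (adjusted p from 0.00677 to 0.0494).

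**Figure D3:**
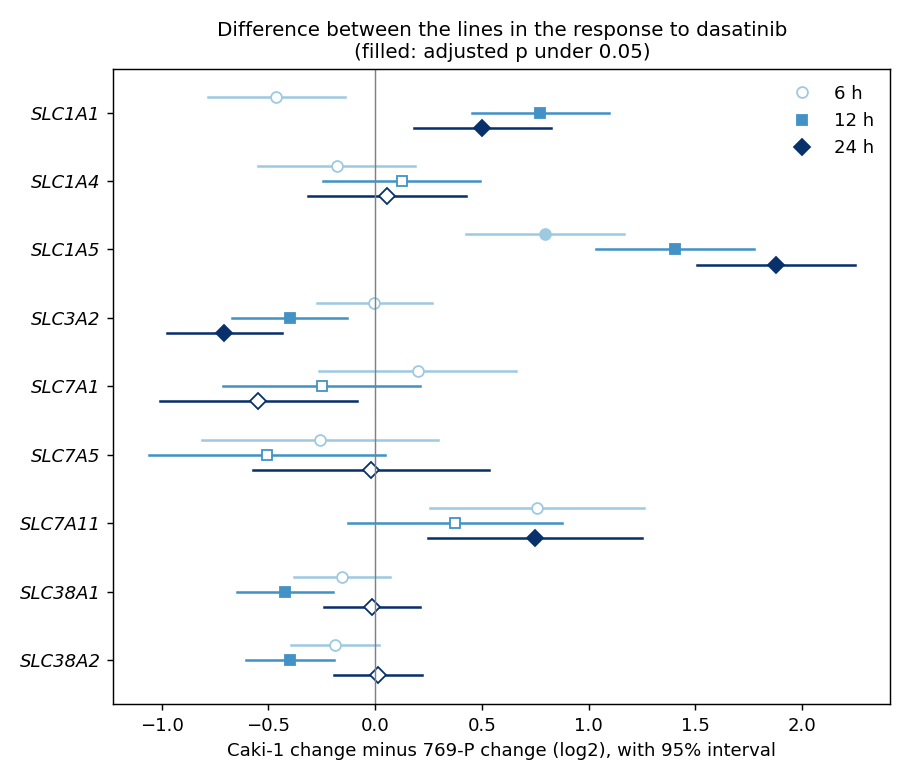
Difference between the lines in the response to dasatinib (Caki-1 change minus 769-P change, log2) with 95% intervals, at 6, 12 and 24 h; filled symbols have an adjusted p under 0.05. SLC1A5 lies right of 0 at each time, at 0.80, 1.41 and 1.88, and SLC3A2 moves left to -0.71.

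Several probe sets of one gene did not always move together. The p-values of single probe sets are adjusted over all probe sets and differ a little from those above. The dimmer probe set of SLC1A1, with a mean of 5.33, rose by 0.73 in Caki-1 at 24 h (adjusted p = 7e-05), and in 769-P it gave -0.17 at 12 h (adjusted p = 0.501) and -0.01 at 24 h (adjusted p = 0.964). With the mean of all its 4 probe sets, the fall of SLC7A1 in Caki-1 was 0.50 at 12 h and 0.54 at 24 h, and its change from 6 to 24 h was -0.47; these calls held. Averaged in the same way in 769-P, SLC7A5 changed by -0.62 from 6 to 24 h (adjusted p = 0.0047) and SLC3A2 rose by 0.29 at 24 h (adjusted p = 0.0396). The 3 probe sets of SLC1A5 gave -1.46, -1.72 and -0.89 in 769-P at 24 h, and all 3 passed. In Caki-1 at 24 h they gave 0.42, 0.43 and 0.23, and the last did not pass (adjusted p = 0.16). That dimmest probe set did not pass in Caki-1 at 12 h either (0.26, adjusted p = 0.15). The 7 probe sets of SLC3A2 gave -0.25 to -0.46 in Caki-1 at 24 h, all past the test, while in 769-P at 24 h 5 passed, at 0.37 to 0.45, and the other two read -0.13 and 0.17. For SLC7A11 the second probe set gave 1.93 and 1.08 at 6 h in Caki-1 and 769-P, and the third gave 0.37 (adjusted p = 0.0757) and 0.06 (adjusted p = 0.851). SLC7A5 had a second probe set that gave 0.06 at 6 h (adjusted p = 0.86) and -0.59 at 24 h (adjusted p = 0.000725) in Caki-1, and with the mean of both the 6 h call was lost (0.18, adjusted p = 0.147).

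The probe sets of SLC38A2 differed in sign. Its brightest probe set, with a mean of 11.8 over the arrays, rose by 0.36 in Caki-1 at 24 h, and the dimmer ones, with means of 6.08 and 5.64, gave -0.25 (adjusted p = 0.103) and -0.49 (adjusted p = 0.00447). At 12 h in Caki-1 they fell by 0.34 (adjusted p = 0.0355) and 0.41 (adjusted p = 0.0219), where the brightest gave 0.18. In 769-P at 24 h they gave -0.20 and -0.22, neither past the test. With the mean of all 3, SLC38A2 passed in 769-P at 6 h (0.26, adjusted p = 0.0425) and 12 h (0.28, adjusted p = 0.0182), and in Caki-1 at 6 h it did not (0.18, adjusted p = 0.0969). SLC1A4 had 6 probe sets, all dim. In Caki-1 at 24 h the brightest (mean 6.35) gave 0.20, while those with means of 6.06 and 5.52 gave -0.48 (adjusted p = 0.0301) and -0.82 (adjusted p = 0.000623). From 6 to 24 h in Caki-1 the brightest gave 0.28, not past the test, and the same dimmer ones gave -0.54 (adjusted p = 0.0178) and -0.90 (adjusted p = 0.00036). In 769-P at 24 h the one with a mean of 6.06 gave -0.36 (adjusted p = 0.0327), and no other probe set of SLC1A4 passed there. In SLC38A1 the 3 brightest gave 0.37, 0.39 and 0.45 in 769-P at 24 h and the dimmest -0.04 and -0.10; at 6 h the third gave -0.05. With the mean of all 5, SLC38A1 did not pass in 769-P at 6 h (0.10, adjusted p = 0.516) or 24 h (0.22, adjusted p = 0.0844). The brightest probe sets of SLC3A2, SLC7A11 and SLC38A1 carry suffixes by which the manufacturer marks probes that can match more than 1 transcript or gene.

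**Figure D4:**
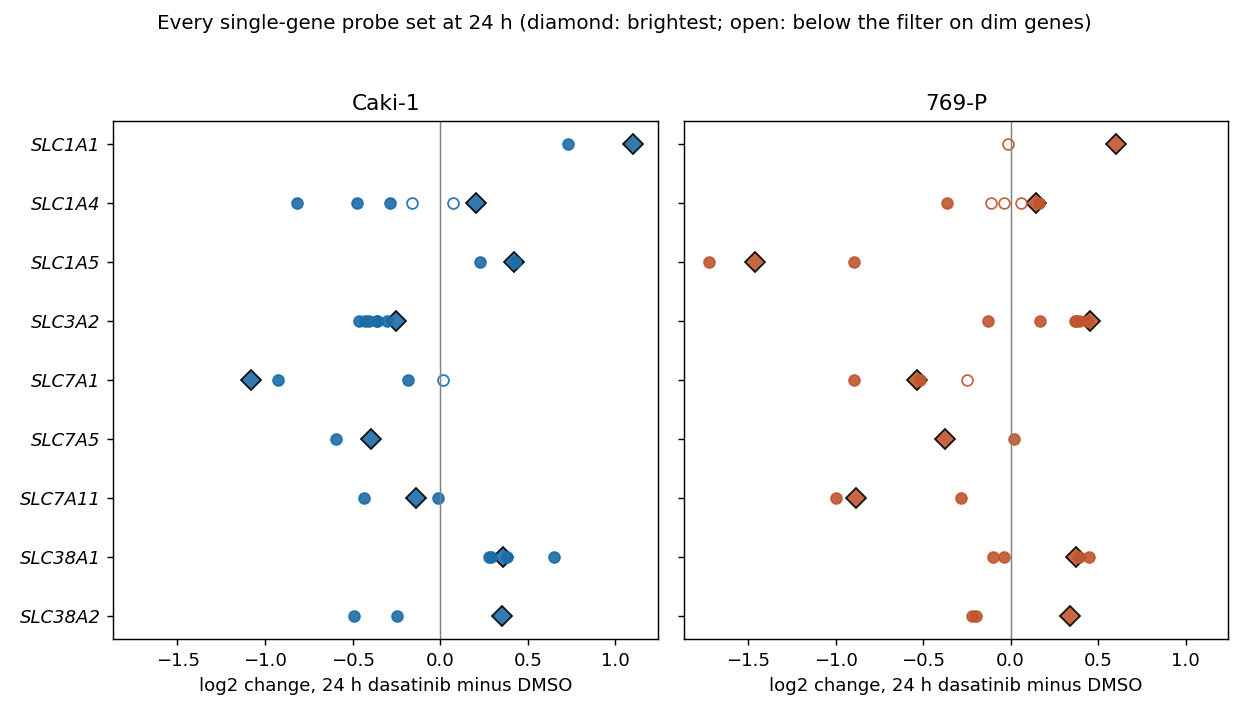
Log2 change at 24 h of dasatinib against DMSO for every single-gene probe set of each transporter, in Caki-1 (left) and 769-P (right); diamonds are the brightest probe sets and open symbols lie below the filter on dim genes. The probe sets of SLC1A5 and SLC3A2 keep to one side of 0 in Caki-1, and the diamond of SLC38A2 stands apart from its dimmer probe sets in both lines.

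The messages of 3 factors known to regulate these transporters were read as well. Of a list of 7 such factors, 6 were tested, and at 24 h 4 were higher and 1 lower in Caki-1 and 2 higher and 2 lower in 769-P. At that time 32.9% of all genes tested were higher and 29.9% lower in Caki-1, and 31.1% and 24.6% in 769-P. NFE2L2, which activates SLC7A11 under oxidative stress, rose by 0.73 ± 0.05, 0.85 ± 0.05 and 1.02 ± 0.05 at 6, 12 and 24 h in Caki-1 and by 0.41 ± 0.06, 0.51 ± 0.06 and 0.62 ± 0.06 in 769-P. Its message was highest at 24 h in both lines. MYC, an activator of SLC1A5 and SLC7A5 in many tumour cells, fell by 3.51 ± 0.16, 2.80 ± 0.16 and 0.91 ± 0.16 in 769-P and by 1.13 ± 0.11, 1.12 ± 0.11 and 0.85 ± 0.11 in Caki-1. The lines differed in the MYC response at 6 h (2.38 ± 0.21, adjusted p = 5.78e-08) and 12 h (1.68 ± 0.21, adjusted p = 3.02e-06) and not detectably at 24 h (0.06 ± 0.21, adjusted p = 0.86). Whether the MYC response bears on SLC1A5, which differed between the lines at each time, was not tested. ATF4, the factor of the amino acid response, is controlled mainly at translation, which arrays do not measure. Its message fell by 0.22 ± 0.06, 0.21 ± 0.06 and 0.15 ± 0.06 in 769-P. In Caki-1 it differed by 0.05 ± 0.06 and 0.04 ± 0.06 at 6 and 12 h, with adjusted p = 0.593 and 0.546, and rose by 0.16 ± 0.06 at 24 h (adjusted p = 0.02). EPAS1 (HIF-2 alpha), the hypoxia factor of clear cell renal tumours, rose at 24 h by 0.39 ± 0.14 in Caki-1 (adjusted p = 0.0266) and by 1.07 ± 0.18 in 769-P (adjusted p = 9.47e-05). Whether these messages bear on those of the transporters was not tested.

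Other amino acid carriers were counted from a list of 30, of which 20 were bright enough to test in Caki-1 and 19 in 769-P. In Caki-1, 4 were higher and 1 lower at 6 h, 7 and 2 at 12 h, and 9 and 3 at 24 h. In 769-P, 3 were higher and 1 lower at 6 h, 6 and 1 at 12 h, and 7 and 1 at 24 h. Over all genes tested, 26.3%, 48.4% and 62.8% passed at these times in Caki-1, and 30.9%, 47.5% and 55.7% in 769-P. At 24 h the shares higher and lower were 32.9% and 29.9% in Caki-1, and 31.1% and 24.6% in 769-P. The median change of the listed carriers at 24 h was 0.28 in Caki-1 and 0.16 in 769-P, against 0.08 and 0.04 over all genes. SLC38A10 rose in both lines at 24 h, by 1.32 ± 0.07 and 1.27 ± 0.10. In Caki-1, SLC43A2, a carrier of large neutral amino acids, rose by 0.99 ± 0.11 and SLC38A6 fell by 0.76 ± 0.10. In 769-P, SLC7A7, which exports cationic amino acids with SLC3A2, rose by 2.03 ± 0.16, and SLC3A1, the other heavy subunit, rose by 1.35 ± 0.25.

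Of 22 genes of the amino acid response, 7 were higher and 0 lower in Caki-1 at 6 h and 12 and 6 at 24 h. In 769-P, 7 were higher and 4 lower at 6 h and 11 and 8 at 24 h. The largest changes at 24 h in Caki-1 were CTH, which makes cysteine from cystathionine (2.71 ± 0.24), the stress-induced NUPR1 (2.64 ± 0.16) and the mTORC1 inhibitor DDIT4 (2.08 ± 0.16). In 769-P they were the folate enzyme MTHFD2 (-3.00 ± 0.14), the stress factor ATF3 (2.10 ± 0.15) and DDIT4 (2.01 ± 0.11). Members of this list thus went both ways, and the list's median change at 24 h was 0.20 in Caki-1 and 0.13 in 769-P. Of all genes tested, 12.3% were higher and 14.0% lower in Caki-1 at 6 h, and 32.9% and 29.9% at 24 h. For 769-P the shares were 16.4% and 14.5% at 6 h, and 31.1% and 24.6% at 24 h.

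Enzymes that use the imported glutamine, glutamate and cystine were counted from a list of 12, with 9 tested in Caki-1 and 10 in 769-P. At 24 h, 1 was higher and 5 lower in Caki-1, with a median of -0.37, and 5 were higher and 4 lower in 769-P, with a median of 0.19. In Caki-1 the largest changes were PPAT (-1.54 ± 0.09) and CAD (-1.47 ± 0.06), which begin purine and pyrimidine synthesis with glutamine, and the aspartate aminotransferase GOT2 (-1.02 ± 0.07). In 769-P they were the glutamine synthetase GLUL (1.55 ± 0.16), GCLC, which catalyses the first step of glutathione synthesis (1.37 ± 0.11), and PPAT (-0.82 ± 0.07). Of 16 tested genes that sense amino acids for mTORC1, 10 were higher and 3 lower in Caki-1 at 24 h, and 11 and 2 in 769-P, with medians of 0.62 and 0.50. The methionine-pathway sensor SAMTOR (1.65 ± 0.11), the Rag GTPase RRAGB (1.11 ± 0.12) and NPRL3 of the GATOR1 complex (-1.07 ± 0.08) changed most in Caki-1. DEPTOR (2.17 ± 0.15), an mTOR inhibitor, RRAGB (1.82 ± 0.08) and RRAGD (0.87 ± 0.10) changed most in 769-P. For both lists the background at 24 h was 32.9% of genes higher and 29.9% lower in Caki-1, and 31.1% and 24.6% in 769-P.

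The genes whose pattern over the 24 arrays was most like that of each member, by Pearson's r after each line's mean was subtracted, are named as a description. The arrays share lines and controls, so their number is not that of independent samples. For SLC7A11 these were SRXN1 (0.922), the sulfiredoxin, DPY19L1 (0.915) and ASH2L (0.911). For SLC1A5 they were LYPD1 (0.919), SFN (0.904) and GNA12 (0.902), and for SLC7A1 POLR3F (0.947), MRPS12 (0.938) and METTL13 (0.928). For SLC1A1 they were CTDSPL (0.922), ANXA11 (0.91) and ZBTB8A (0.898), and for SLC38A2 RNF135 (0.905), AKAP13 (0.895) and CREB3L2 (0.886). SLC38A1 was nearest to MPP1 (0.879), SEPHS2 (0.878) and UBE3B (0.876), and SLC7A5 to PPP2R5D (0.844), KLHL15 (0.839) and RHOA (0.833). SLC3A2 was nearest to SAMM50 (0.847), COMMD1 (0.808) and SOD1 (0.805), and SLC1A4 to SPRYD3 (0.773), LRP5 (0.766) and PACS1 (0.765).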

How the data were processed

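The 24 arrays were analysed as deposited by the authors, as log2 signals with 1 value per probe set and array. The arrays had a common level at deposit, since their medians lay close together. The submitters' processing notes name MAS5, with no version or settings, and the scaling between arrays is not given in the sources used here. Of 49395 rows, 102 array controls were left out. The platform annotation names exactly 1 gene for 44988 probe sets, several for 1832 and has no entry for 2473.

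Groups came from the labels. Each gene was read from its brightest single-gene probe set. Within a line, genes above the 40th percentile of probe-set means were tested (12423 in Caki-1 above 5.38, 12354 in 769-P above 5.36), with 12864 in the fits of both lines. Tests used limma 3.58.1 in R 4.3.3 (lmFit, eBayes with an intensity trend) with the package data.table (version 1.17.8) and a group-means design: 12 arrays and 8 residual degrees of freedom within a line, 24 arrays and 16 between lines. P-values were adjusted by Benjamini-Hochberg over all genes tested, and genes under 0.05 were called. The method was tested on simulated data. The members and the gene lists were chosen with earlier results of these data known. All 9 members were to be named, ATF4, MYC and NFE2L2 likewise, up to 3 called genes of each gene list with the largest change at 24 h in each line, and the 3 genes most like each member.

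Replicate numbers from the labels were checked as pairs by correlating deviations from the group means. Every pair exceeded 0.1 at 6 h in 769-P (from 0.11 to 0.36), in its 24 h comparison with DMSO (from 0.12 to 0.17) and in that with 6 h (from 0.10 to 0.19), and not in the other comparisons. Alternatives covered scaling, filter, probe-set choice, variance prior, arrays in the fit, replicate block and leaving out each array.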

Additional observations from a re-analysis of the deposited data

Results flagged for a closer look

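These 10 results were flagged because the lines responded differently by a direct test in limma over all 24 arrays. The 769-P change was subtracted from that of Caki-1 and p adjusted over all genes. The test passed 11.1%, 55.6% and 44.4% of the members at 6, 12 and 24 h, against 8.09%, 18.9% and 36.0% of all genes. SLC1A5 differed by 0.80 at 6 h, 1.41 at 12 h and 1.88 at 24 h, with adjusted p of 0.00488, 3.3e-06 and 2.49e-08. In Caki-1 its 3 arrays at 12 and at 24 h all lay above DMSO, and in 769-P all 9 treated arrays lay below it.

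SLC1A1 differed by 0.77 at 12 h (adjusted p = 0.000762) and by 0.50 at 24 h (adjusted p = 0.0138). SLC3A2 differed by -0.40 at 12 h (adjusted p = 0.0331), a call that 8 of 12 omissions of 1 array removed, and by -0.71 at 24 h (adjusted p = 0.000166). At 12 h SLC38A1 differed by -0.42 (adjusted p = 0.00697) and SLC38A2 by -0.40 (adjusted p = 0.00586). The SLC38A1 call was lost with the mean of its probe sets and with the brightest one without suffix _x or _s. SLC7A11 differed by 0.75 at 24 h (adjusted p = 0.0184), a call lost with the mean of probe sets (adjusted p = 0.0649), with the brightest one without suffix _x or _s (adjusted p = 0.23) and without replicate 2 of Caki-1 DMSO (adjusted p = 0.0523). No sample of the members' groups was tested as an outlier, because groups of 3 arrays are too small for that.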

How the results depend on the processing

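Of 64 called member results, 42 kept their direction and call under every alternative tried, and of 44 results not called, 29 stayed so. Away from leaving out arrays, 861 of 924 values kept their side, 34 lost and 23 gained a call and 6 reversed. No scaling alternative reversed a member, and a change of sign between values neither of which was called is not counted. Taking the mean of all single-gene probe sets turned SLC38A2 in Caki-1 to -0.19 at 12 h, -0.13 at 24 h and -0.31 for 24 h against 6 h, and in 769-P to -0.025 at 24 h; it turned SLC1A4 in Caki-1 at 24 h to -0.24. It left 2 members called in Caki-1 at 6 h, beside 1351 genes higher and 1476 lower of 11082 tested. At 12 h it left 3, beside 2614 genes higher and 2906 lower. Using no probe set with suffix _x or _s was chosen after seeing the data. It left 3 in Caki-1 at 12 h, beside 2401 genes higher and 2605 lower of 10809, and turned SLC38A1 in 769-P at 6 h to -0.045. Without the intensity trend 3 were called in 769-P at 6 h, beside 1946 genes higher and 1710 lower of 12354. For the difference of the lines at 6 h, the 60th-percentile filter gave 2, beside 459 genes higher and 527 lower of 9791. The replicate block gave 8 members in 769-P at 6 h, against 35.3% of all genes. For the difference of the lines at 6 h it gave 3, with SLC1A1 and SLC7A11 added, beside 638 genes higher and 743 lower of 12864. At 24 h it added SLC7A1 to the difference (adjusted p = 0.00431) and in Caki-1 at 6 h SLC7A1 (adjusted p = 0.0312). The block removed no call. Leaving out 1 array gave 4 to 5 members in Caki-1 at 6 h, 2 to 5 at 12 h and 7 to 8 at 24 h; 3 to 6, 6 to 7 and 6 to 8 in 769-P; 7 to 8 and 3 to 6 for 24 h against 6 h in Caki-1 and 769-P; 1 to 2, 4 to 5 and 3 to 5 for the difference of the lines; and 5 to 6 under DMSO. The cause was not tested. The shares of all genes that passed with every array kept are given above, by comparison. The fall of SLC1A5 in 769-P, its difference between the lines, the fall of SLC7A1 at 12 and 24 h in Caki-1 and the early rise of SLC7A11 in both lines kept their calls throughout. Signal over background is not given by these values; SLC1A4 and the dimmer probe sets lay nearest to the filter.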
